A study of Mus musculus with 15 samples.

Results

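The change in gene expression across fear extinction was taken as the mean of 2 differences between libraries sampled after and before extinction, one within ABX-treated mice and one within untreated mice, so that each treatment arm weighed the same. All 15 libraries of the series entered this averaged contrast. Of 16816 genes tested, 162 were called, meaning an adjusted p under 0.05 by edgeR's quasi-likelihood test with Benjamini-Hochberg adjustment over all genes tested. This is 0.963% of the genes tested. The called genes comprised 37 that were higher after extinction (0.22%) and 125 that were lower (0.743%). Each of the 162 shifted in the same direction in both arms, which a call in the average of the arms partly fixes.

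The tissue was medial prefrontal cortex (mPFC), dissected by atlas coordinates from C57BL/6J mice. ABX usually stands for an antibiotic mixture in this field, and the labels mark each mouse sample as ABX treated or not and as taken ahead of or following fear extinction. There were 4 groups, non-ABX before extinction (n = 3, replicates 1, 3 and 4), non-ABX after extinction (n = 4), ABX before extinction (n = 4) and ABX after extinction (n = 4). The sources used here do not say whether each library is 1 animal, so p-values measure only the spread between these libraries.

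Fear extinction is the gradual loss of a conditioned fear response that is learned when the cue is met repeatedly without the aversive event, and the mPFC is among the regions that regulate it. In cortical neurons, firing induces immediate early genes, many of which encode transcription factors that in turn control later genes for synaptic growth. Glucocorticoid hormones, released in stress and across the day, act through nuclear receptors on another set of genes, and the cells' circadian clock sets the daily course of still other genes. Brain cells make most of their cholesterol locally, under the control of transcription factors that sense sterols.

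Total counts per library ran from 44254906 to 57929503, and 19621 to 19939 of 27179 gene identifiers had counts. Markers of cortical tissue were present in each library. Slc17a7, the vesicular glutamate transporter of cortical excitatory neurons, lay between 1200 and 1780 CPM (counts scaled for each library's size and composition). Gad1 of inhibitory neurons lay between 337 and 421 CPM. The library preparation text speaks of sorted cells, although the source is given as dissected tissue. The labels give no collection date, time of day or batch, so extinction stage and any of these cannot be told apart. The first principal component of the libraries held 40.4% of their variance, with ABX before extinction replicate 1 at one end and non-ABX before extinction replicate 3 at the other.

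Differences are log2 fold changes, after over before extinction, and levels are CPM. Values in single libraries are given in the order of the replicate numbers. Many genes named below were picked partly because their libraries did not overlap within either arm. For these genes the lack of overlap was a condition of selection and is no further support.

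The averaged contrast asks which genes shifted with extinction stage irrespective of ABX treatment. The called changes were small. The median log2 fold change of the 37 higher genes was 0.47, and that of the 125 lower genes was -0.37, while the median over all genes tested was 0.00. Of the 162 called genes, 116 changed by less than 0.5 on the log2 scale. Genes that changed by more than 1 included Plin4, Rtp1 and Tekt4 among the higher genes and Zfp804b among the lower genes. Rtp1, which encodes a chaperone of odorant receptors, and Tekt4, a tektin of motile cilia, had group means of at most 1.49 and 0.421 CPM, so these changes concern rare transcripts. Zfp804b, a zinc finger gene, had a log2 fold change of -1.01 (adjusted p = 0.0319) and fell from 2.43 ± 0.492 to 1.23 ± 0.485 CPM (SD, n = 3 and 4) in the non-ABX arm and from 2.91 ± 0.996 to 1.42 ± 0.283 CPM (SD, n = 4 each) in the ABX arm.

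The arms moved together across the table. Over all genes tested, 12753 of 16816 (75.8%) had the same sign in both arms, and the log2 fold changes of the arms correlated across genes with Pearson's r = 0.46 and Spearman's rho = 0.57. The arms share no library, but they share the normalization and the estimate of the spread, and genes are not independent replicates. An unadjusted p under 0.05 in each arm with the same sign was found for 408 genes (2.43%), 83 higher and 325 lower after extinction, against 4 genes with opposite signs. For 140 genes (0.833%) the libraries before and after extinction did not overlap within either arm and moved in the same direction, against 1 gene with opposite directions. Of the 162 called genes, 77 were among these 140, 19 higher and 58 lower.

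Leaving out 1 library changed the number of called genes by more than 1.5 times for 12 of the 15 libraries. It fell to 14 without non-ABX before extinction replicate 4, 20 without non-ABX after replicate 3, 22 without non-ABX before replicate 1, 33 without ABX before replicate 3, 43 without ABX after replicate 4, 45 without non-ABX after replicate 1, 47 without ABX after replicate 3, 70 without non-ABX after replicate 2 and 82 without ABX before replicate 2. It rose to 269 without non-ABX after replicate 4, 747 without ABX before replicate 4 and 2262 without non-ABX before replicate 3. In each of the 15 refits, all 162 genes kept their sign and an unadjusted p under 0.05. These genes were selected on all 15 libraries, and each refit left out only 1. Their kept sign and p were thus largely fixed by the selection and are no independent check. Of 75 called genes followed one by one, 13 stayed called under all 26 alternatives tried, 15 of which left out 1 library, and each of the others lost its call under at least 1. With sample quality weights in limma voom the split was 3383 higher and 2975 lower.

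**Figure D1:**
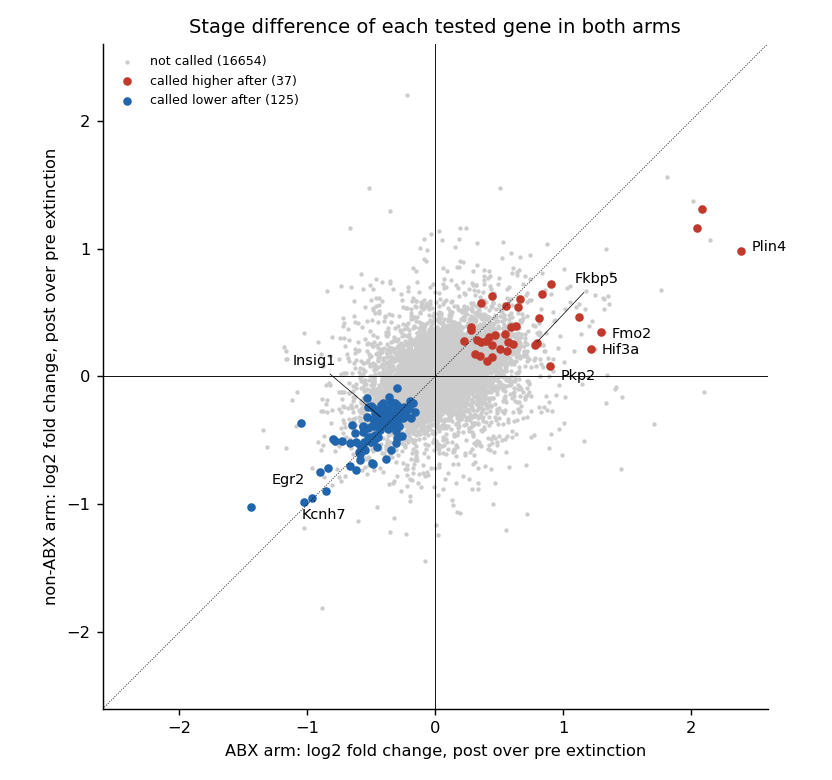
Each point is 1 of the genes tested, placed by its log2 fold change after over before extinction in the ABX arm (horizontal axis) and in the non-ABX arm (vertical axis), with called genes in red (37 higher) and blue (125 lower) and the dotted line marking equal change. All 162 called genes lie in the quadrants where both arms have the same sign, which a call in the average partly fixes. The axes end at 2.6, and 2 genes lie outside them.

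Most genes of cholesterol synthesis and uptake had lower values after extinction in both arms. Of 30 listed genes, 7 fell and 0 rose, which is 23.3% called against 0.963% of all genes tested. Negative values in both arms were found for 21 of the 30, against 6367 of all 16816 genes tested. This list and those below were chosen with earlier results of these data known. A list's share of calls was thus partly fixed in advance and is no independent support. The list's median log2 fold change was -0.14 in the average, -0.13 in the ABX arm and -0.14 in the non-ABX arm, against 0.00 in the average over all genes. The genes that fell include Hmgcs1 near the entry of the pathway, Cyp51 and Hsd17b7 in the later conversion of sterols, Insig1, which retains the sterol-sensing complex in the endoplasmic reticulum, and Stard4, a sterol carrier. With 1 library left out the number called lower was 1 without non-ABX before extinction replicate 4 and 2 without non-ABX before replicate 1. It was 3 without ABX before replicates 2 or 3, ABX after replicates 3 or 4, or non-ABX after replicates 1, 2 or 3, and 11 without ABX before replicate 4 or non-ABX before replicate 3, with 2 called higher in the latter.

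Insig1 (Entrez 231070, chromosome 5, 28071412 to 28078662, GRCm38) had 59.5, 55.3 and 55.3 CPM before and 44.5, 45.1, 45.5 and 44.8 CPM after extinction in non-ABX libraries. The ABX libraries had 73.7, 67.6, 68.2 and 62.1 CPM before and 60.3, 46.9, 46.1 and 51.7 CPM after. The groups did not overlap within either arm, and the averaged log2 fold change was -0.37 (SE 0.06, adjusted p = 0.0115). Cyp51, the lanosterol demethylase, fell by 0.36 on the log2 scale (adjusted p = 0.0121), from 84.9 ± 5.65 to 65.3 ± 2.87 CPM (SD, n = 3 and 4) in the non-ABX arm and from 98.6 ± 5.9 to 77.6 ± 9.51 CPM (SD, n = 4 each) in the ABX arm, where 1 library after extinction (90.9 CPM) lay above the lowest before it (90.3 CPM).

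Other falling genes of the list had averaged log2 fold changes of -0.38 (Stard4, adjusted p = 0.033), -0.34 (Hmgcs1, 0.0405) and -0.27 (Hsd17b7, 0.028). The sterol-responsive transcription factors had values of 0.34 (Srebf1) and 0.02 (Srebf2), and their escort protein Scap had 0.16, and these 3 were not called. With the GC-content trend of each library removed, the list had 10 genes called lower and 0 higher and a median of -0.16, but Hsd17b7 was no longer called (-0.16, adjusted p = 0.0917). Over the whole table, genes called lower rose from 125 to 214 under this setting.

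Promoter windows are shown for a pair of the falling genes because both hold the palindrome CACGTG, an E-box, which reads the same on both strands. Windows run from 250 bases before to 50 bases after an annotated start and come from RefSeq on GRCm38.p6. The capitals mark the E-box. Insig1 lies at chr5:28071162-28071461 on the plus strand and Hsd17b7, which encodes a sterol reductase, at chr1:169969156-169969455 on the minus strand.
Insig1 promoter: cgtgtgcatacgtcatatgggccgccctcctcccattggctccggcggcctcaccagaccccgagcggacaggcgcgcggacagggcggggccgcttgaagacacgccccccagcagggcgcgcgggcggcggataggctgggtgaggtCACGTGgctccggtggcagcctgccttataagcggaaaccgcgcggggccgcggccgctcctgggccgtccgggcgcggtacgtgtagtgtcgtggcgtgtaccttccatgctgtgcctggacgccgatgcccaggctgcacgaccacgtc
Hsd17b7 promoter: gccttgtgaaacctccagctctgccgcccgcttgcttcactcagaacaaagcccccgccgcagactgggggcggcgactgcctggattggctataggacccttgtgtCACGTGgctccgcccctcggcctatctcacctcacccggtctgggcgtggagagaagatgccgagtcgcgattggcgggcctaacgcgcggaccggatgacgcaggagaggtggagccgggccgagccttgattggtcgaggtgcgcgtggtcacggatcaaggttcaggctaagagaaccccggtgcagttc
Of the 30 list members, 21 had a promoter in the RefSeq table, and 6 of these (28.6%) held the E-box, against 1406 of 12772 tested genes with a promoter (11%). Of these 6 genes, Insig1 and Hsd17b7 were called, and Abca1, Dhcr7, Sc5d and Scap were not. The share was of similar size in the other lists searched, with 8 of 30 immediate early genes (26.7%), 5 of 20 clock genes (25%) and 5 of 23 glucocorticoid-induced genes (21.7%). Some genes that hold the E-box, such as Per1 and Dusp1, stand on more than 1 of these lists. Among called genes it stood in 3 of 27 higher genes (11.1%) and 9 of 87 lower genes (10.3%). A sterol response element, searched as 1 fixed sequence on both strands, was found in 0 of the 21 genes and in 9 of the 12772. A match describes letters in this window and is no measure of binding.

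Genes induced by neuronal activity mostly had lower values after extinction. Of 37 immediate early genes, 30 had negative and 7 had positive values, against 8370 negative of all 16816 genes tested. Of the 37, 7 fell (18.9%, against 0.743% of all genes tested) and 0 rose. The list's median was -0.26 in the average, -0.23 in the ABX arm and -0.25 in the non-ABX arm. The members that fell were Egr2, Klf10, Nr4a2, Nr4a3, Fosl2, Nfil3 and Tiparp, most of which encode transcription factors. The best known members of the list, Fos, Arc, Egr1 and Npas4, were not called. The 7 calls became 0 without ABX before extinction replicate 3, non-ABX before replicates 1 or 4, or non-ABX after replicate 3, and 1 without ABX after replicate 3. They became 3 without ABX after replicates 2 or 4 or non-ABX after replicate 1, and 4 without ABX before replicates 1 or 2 or non-ABX after replicate 2. The list's median was -0.16 without non-ABX before replicate 3 and -0.11 with voom, which called 2 higher and 12 lower.

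Klf10 (Entrez 21847, chromosome 15, 38291464 to 38300711), a zinc finger factor, had 64.7, 59.9 and 67.5 CPM before and 29.2, 52.4, 41.7 and 58.7 CPM after extinction in the non-ABX arm. In the ABX arm it had 54.2, 75.1, 77.7 and 65.9 CPM before and 39.3, 38, 39.5 and 39.8 CPM after. The groups did not overlap in either arm, and the ABX libraries after extinction lay close together. The averaged log2 fold change was -0.65 (SE 0.12, adjusted p = 0.0212).

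Egr2 (Entrez 13654), a zinc finger factor of the early growth response family, had 10.1, 13.9 and 13.3 CPM before and 3.09, 7.39, 8.11 and 8.09 CPM after extinction in non-ABX libraries. In the ABX libraries the values were 17.5, 12.7, 18.2 and 17.6 CPM before and 11.8, 7.55, 6.49 and 10.7 CPM after. The log2 fold changes of the arms were -0.85 with ABX and -0.90 without, and the average was -0.88 (SE 0.18, adjusted p = 0.0322). The groups did not overlap within either arm, although the highest ABX library after extinction lay close to the lowest before it.

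The orphan nuclear receptors of the Nr4a family had averaged values of -0.46 (Nr4a2, adjusted p = 0.0226) and -0.62 (Nr4a3, adjusted p = 0.0379), and both fell. Nr4a2 had 9.9, 10.5 and 10.8 CPM before and 6.77, 7.56, 7.14 and 8.44 CPM after extinction in non-ABX libraries, and 12.1, 9.65, 12 and 10.5 CPM before and 9.77, 6.85, 6.77 and 9.04 CPM after it in ABX libraries. The groups did not overlap without ABX, whereas with ABX 1 library after extinction lay just above the lowest before it. The related receptor Nr4a1 had a value of -0.24 with adjusted p = 0.359.

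Fosl2, a Fos-related subunit of the AP-1 factor, fell by 0.37 on the log2 scale (adjusted p = 0.0216), and its libraries did not overlap within either arm. Fos, the founding member of that family, had a larger averaged value of -0.44 but was not called (SE 0.21, adjusted p = 0.249). Its libraries spread widely, with 9.91, 24.4, 28.9 and 25 CPM in the non-ABX arm after extinction and 44.7, 16.8, 20.3 and 34.5 CPM in the ABX arm after extinction. Arc, a synaptic effector of activity, had a value of -0.48 (SE 0.26, adjusted p = 0.285), and Egr1 of -0.36 (adjusted p = 0.134). Npas4, a factor induced by calcium entry, had a value of -0.04 (SE 0.23, adjusted p = 0.919), with 0.10 in the ABX arm and -0.18 in the non-ABX arm.

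Genes of the second wave of activity-dependent expression also had mostly negative values. Of 27 late genes, 22 had negative values in both arms, against 6367 of all 16816 genes tested. Among the 27, 1 fell (3.7%, against 0.743% of all genes tested) and the list's median was -0.19. The gene that fell was Gpr3, a receptor that raises cyclic AMP without a ligand, with a log2 fold change of -0.48 (adjusted p = 0.033) and libraries apart in both arms. With 1 library left out the list had 0 called lower in 8 of the 15 refits, 4 without ABX before extinction replicate 1, 5 without ABX before replicate 4 and 10 without non-ABX before replicate 3. Cdkn1a, a cell cycle inhibitor, had -0.25 (adjusted p = 0.0644) and Baz1a, a chromatin remodelling subunit, -0.41 (adjusted p = 0.0724). Bdnf, the growth factor of synaptic plasticity, had 38.9, 38.1 and 43.4 CPM before and 29.9, 35, 35.7 and 34 CPM after extinction without ABX, and 31.1, 41.8, 48.4 and 35.8 CPM before and 30.4, 33.8, 29.8 and 26.8 CPM after with ABX. The non-ABX groups were apart and the ABX groups overlapped, and the averaged value was -0.32 (SE 0.08, adjusted p = 0.0774). Once the GC-content trend was taken out, 12 of the 37 immediate early genes and 4 of the 27 late genes were called lower, and the medians were -0.31 and -0.10. Calls over the whole table rose as well, from 125 to 214 lower. If the RNA came from whole tissue, as the source label has it, fewer cells of a type and less RNA per cell cannot be told apart, here and below.

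**Figure D2:**
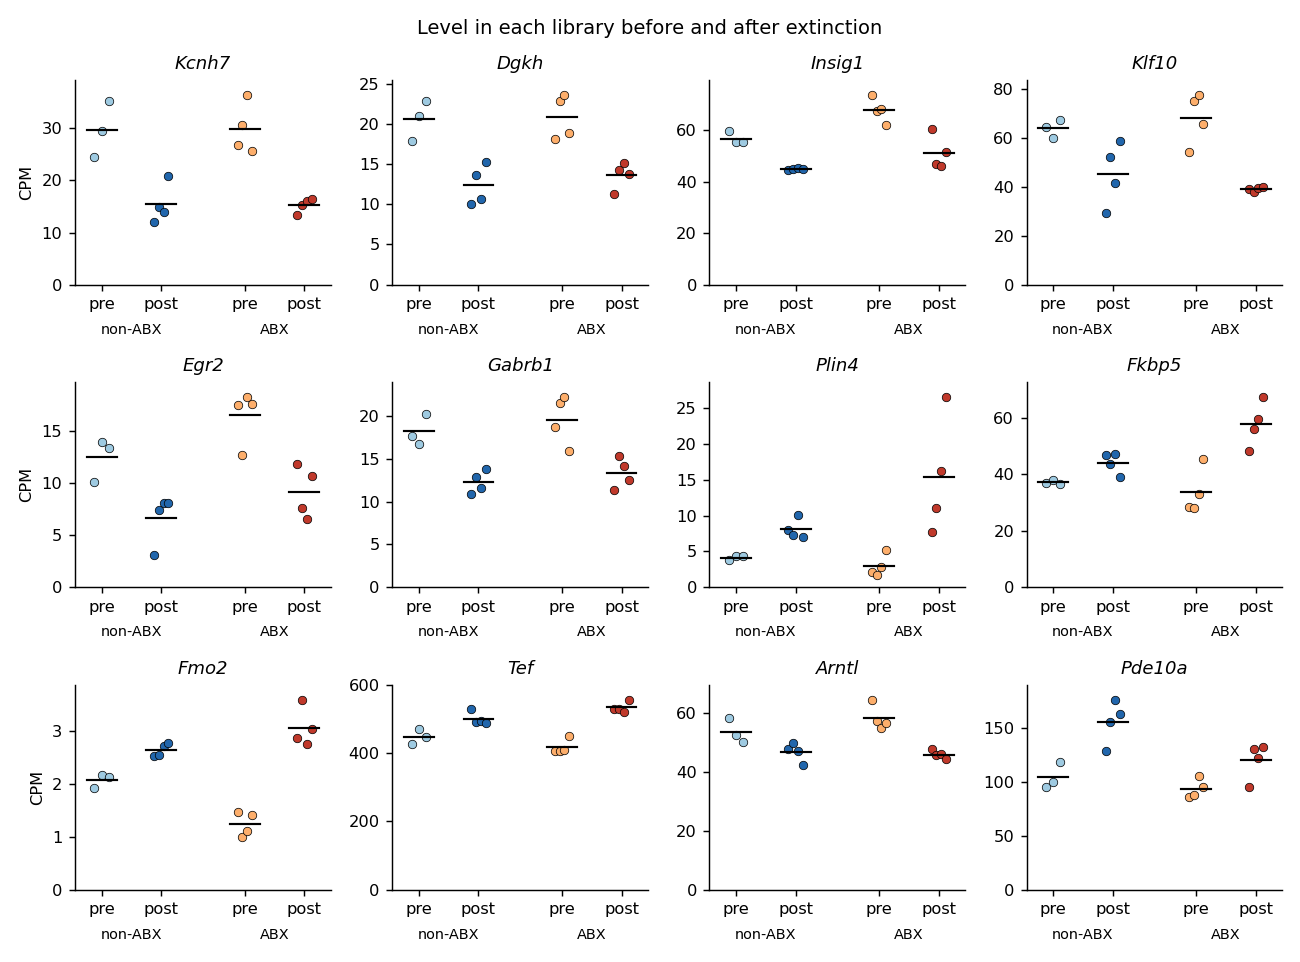
CPM of 12 genes (vertical axes, starting at 0) in each library of the non-ABX and ABX arms before (pre) and after (post) extinction, with 1 point per library and a bar at the group mean (n = 3 for non-ABX before extinction, n = 4 in the other groups). Kcnh7, Dgkh, Insig1, Klf10, Egr2, Gabrb1 and Arntl lie lower after extinction in both arms, and Plin4, Fkbp5, Fmo2, Tef and Pde10a lie higher.

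Several neuronal channel and receptor genes were lower after extinction by nearly the same amount in both arms. Kcnh7 (Entrez 170738, chromosome 2, 62693410 to 63184287), a pore-forming subunit of Erg-type potassium channels, which limit firing, had the smallest adjusted p of the table, together with Fmo2. It had 24.4, 29.5 and 35.3 CPM before and 12, 14.8, 13.9 and 20.9 CPM after extinction in non-ABX libraries. It had 26.7, 30.7, 36.4 and 25.7 CPM before and 13.4, 15.3, 16.1 and 16.5 CPM after extinction in ABX libraries. The groups were apart in both arms, and the group means went from 29.7 ± 5.43 to 15.4 ± 3.85 CPM (SD, n = 3 and 4) and from 29.9 ± 4.84 to 15.3 ± 1.37 CPM (SD, n = 4 each). The averaged log2 fold change was -0.96 (SE 0.12, adjusted p = 0.00279), with -0.96 in the ABX arm and -0.95 in the non-ABX arm.

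Potassium channel genes as a list did not share this direction. Of 54 members, 27 had positive and 27 negative values, the median was 0.00, and 4 fell (7.41%, against 0.743% of all genes tested). Besides Kcnh7 these were Kcnh5, an ether-a-go-go channel (-0.48, adjusted p = 0.0212), Kcnma1, the large-conductance calcium-activated channel (-0.37, adjusted p = 0.028), and Kcnb2, a delayed rectifier (-0.31, adjusted p = 0.0307). With 1 library left out the number of potassium channel genes called lower ran from 1 (without non-ABX before extinction replicate 4, ABX after replicate 4 or non-ABX after replicate 3) to 7 (without non-ABX before replicate 3). It was 2 without ABX before replicates 2 or 3, non-ABX before replicate 1 or non-ABX after replicate 1. Once the GC-content trend was taken out, Kcnb2 had -0.15 (adjusted p = 0.253).

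Of 26 genes for GABA receptors and GABA synthesis, 18 had negative values, against 8370 of all 16816 genes tested. Among the 26, 3 fell (11.5%, against 0.743% of all genes tested) and 0 rose. The median was -0.11, or -0.04 with the GC-content trend removed. Gabrb1 (Entrez 14400, chromosome 5, 71657921 to 72149572), the beta 1 subunit of the ionotropic receptor, had 17.7, 16.8 and 20.3 CPM before and 10.9, 12.9, 11.6 and 13.8 CPM after extinction without ABX. With ABX it had 18.7, 21.6, 22.2 and 15.9 CPM before and 11.4, 15.3, 14.2 and 12.5 CPM after. The groups did not overlap in either arm, and the averaged log2 fold change was -0.56 (SE 0.09, adjusted p = 0.0111). Gabrg3, the gamma 3 subunit, fell by 0.58 on the log2 scale (adjusted p = 0.0216). Kctd16, an auxiliary subunit of the metabotropic GABA-B receptor, fell by 0.48 (SE 0.07, adjusted p = 0.00648), with -0.48 in the ABX arm and -0.49 in the non-ABX arm. With 1 library left out the GABA list had 2 called lower in 7 of the 15 refits and 3 in 6 of them. Without ABX before extinction replicate 4 the list had 5 called lower, and without non-ABX before replicate 3 it had 7 called lower and 2 higher. Gad2, a GABA-synthesising enzyme, had a value of -0.18 and was not called (adjusted p = 0.168).

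Erbb4 (Entrez 13869) is the neuregulin receptor found mainly on inhibitory interneurons in cortex. It was the 1 called gene of 25 on the interneuron list (4%, against 0.963% of all genes tested). It had 26.4, 30.8 and 34.3 CPM before and 15.3, 20.4, 19 and 25.5 CPM after extinction without ABX, and 27.3, 32.6, 33 and 25.4 CPM before and 16.5, 19.5, 21.2 and 21.4 CPM after with ABX. Neither arm overlapped, and the averaged log2 fold change was -0.60 (SE 0.10, adjusted p = 0.0168). The interneuron list had a median of -0.03, with 12 positive and 13 negative values.

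Among receptors for other transmitters, Grm3, a group II metabotropic glutamate receptor, fell by 0.34 (adjusted p = 0.028), and Chrm3, a muscarinic acetylcholine receptor, fell by 0.27 (adjusted p = 0.0119). Grm3 was the 1 called of 7 metabotropic glutamate receptors (14.3%, against 0.963% of all genes tested), of which 3 had positive and 4 negative values. Chrm3 was the 1 called of 38 neuromodulator receptors (2.63%), whose median was 0.00 with 19 positive and 19 negative values. Of 42 genes of ionotropic glutamate receptors and postsynaptic scaffolds, 0 were called and the median was 0.02; the smallest p of that list belonged to the AMPA receptor subunit Gria4 (-0.29, adjusted p = 0.0634) and the kainate receptor subunits Grik2 (-0.23, adjusted p = 0.0902) and Grik4 (0.26, adjusted p = 0.135). Of 48 genes of synaptic vesicles and release, 0 were called and the median was 0.01. Of 61 genes for axon guidance and synaptic adhesion, 4 fell (6.56%, against 0.743% of all genes tested), 0 rose and the median was -0.04. These 4 were Dcc, the netrin receptor (-0.35, adjusted p = 0.0216), Unc5d, another netrin receptor family member (-0.32, adjusted p = 0.0216), Slit2, a secreted guidance cue (-0.37, adjusted p = 0.0359), and Sema6d, a membrane semaphorin (-0.27, adjusted p = 0.0216). With the GC-content and transcript-length trends removed, Unc5d was not called (-0.17, adjusted p = 0.136). Dcc (-0.20), Slit2 (-0.25) and Sema6d (-0.23) were still called under that setting. The 4 calls became 0 without ABX before extinction replicate 3, non-ABX before replicates 1 or 4, ABX after replicate 4 or non-ABX after replicates 1 or 3. They became 1 without ABX after replicate 3, 2 without non-ABX after replicate 2, 7 without ABX after replicate 2, and 9 without ABX before replicate 4 or non-ABX before replicate 3.

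Pde10a and Adcy8, both of cyclic nucleotide signalling, moved in opposite directions. Pde10a (Entrez 23984, chromosome 17), a phosphodiesterase most abundant in striatal projection neurons, rose, with 95, 100 and 118 CPM before and 129, 155, 176 and 163 CPM after extinction without ABX. With ABX it had 85.7, 87.4, 105 and 95.1 CPM before and 95.3, 130, 122 and 132 CPM after. The non-ABX groups were apart, whereas in the ABX arm 1 library after extinction lay within the range before it. The averaged log2 fold change was 0.47 (SE 0.08, adjusted p = 0.0212). Adcy8, a calcium-stimulated adenylyl cyclase, fell by 0.26 (adjusted p = 0.0216). Pde10a and Adcy8 were the called genes of 41 on a CREB and CaMK signalling list (4.88%, against 0.963% of all genes tested). The median of that list was 0.02, with 21 positive and 20 negative values.

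Pde10a was not called without non-ABX before extinction replicate 1, ABX after replicate 4 or non-ABX after replicate 3. Of 19 tested striatal projection neuron markers, Pde10a alone was called with all libraries (5.26%, against 0.963% of all genes tested). The median of these markers was 0.07, or 0.02 with the GC-content trend removed. Their summed level, Pde10a included, ran from 800.3 to 887 CPM before and from 915 to 959 CPM after extinction without ABX, and from 714 to 818 CPM before and from 797 to 853 CPM after with ABX. The dopamine receptor Drd1 had a value of -0.18 and Ppp1r1b, the phosphoprotein DARPP-32, a value of 0.22, neither called (adjusted p = 0.422 and 0.144). The part of neighbouring tissue in the Pde10a result was not tested.

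The genes that rose after extinction included targets of glucocorticoid hormones. Of 28 listed genes, 4 rose (14.3%) and 0 fell, against 0.22% of all genes tested that rose, with a list median of 0.13. The median was 0.32 in the ABX arm and -0.01 in the non-ABX arm, so as a list these genes were not higher in both arms. With the GC-content trend removed the median was 0.01, with 5 called higher and 1 lower, while the whole table had 98 called higher and 214 lower. The genes that rose were Plin4, Fkbp5, Hif3a and Sult1a1. With 1 library left out, 1 gene was called higher in 7 of the 15 refits, those without ABX before extinction replicate 3, non-ABX before replicates 1 or 4, ABX after replicates 3 or 4, or non-ABX after replicates 1 or 3. There were 8 without ABX before replicate 4 and 9 without non-ABX before replicate 3, where the median was 0.21 and 0.20.

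Plin4 (Entrez 57435, chromosome 17, 56100587 to 56109948), a lipid droplet coat protein, had 3.72, 4.35 and 4.28 CPM before and 8.02, 7.34, 10.1 and 7 CPM after extinction in non-ABX libraries. In the ABX libraries it had 2.04, 1.74, 2.75 and 5.14 CPM before and 7.66, 11, 16.2 and 26.5 CPM after. The groups were apart in both arms, and the spread was widest in the ABX libraries after extinction. The averaged log2 fold change was 1.69 (SE 0.26, adjusted p = 0.0101), with 2.39 in the ABX arm and 0.98 in the non-ABX arm.

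Fkbp5 (Entrez 14229, chromosome 17, 28398753 to 28486149), a co-chaperone that restrains the glucocorticoid receptor, had 36.9, 37.8 and 36.6 CPM before and 46.7, 43.5, 47.2 and 38.9 CPM after extinction without ABX. With ABX it had 28.4, 28, 33 and 45.2 CPM before and 48.2, 55.9, 59.5 and 67.2 CPM after. Neither arm overlapped, and the averaged log2 fold change was 0.51 (SE 0.10, adjusted p = 0.0216), with 0.78 in the ABX arm and 0.25 in the non-ABX arm. Sult1a1, a sulfotransferase, rose by 0.51 (adjusted p = 0.0257), and its libraries were apart in both arms.

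Other widely used glucocorticoid targets had smaller values that were not called, with 0.27 for Tsc22d3 (adjusted p = 0.102), 0.09 for Zbtb16 (adjusted p = 0.568), -0.03 for Sgk1 (adjusted p = 0.872) and -0.09 for Per1 (adjusted p = 0.73). Fmo2 (Entrez 55990, chromosome 1), a flavin-containing monooxygenase, was not on the list. It had 1.93, 2.17 and 2.14 CPM before and 2.53, 2.55, 2.72 and 2.78 CPM after extinction without ABX, and 1.48, 0.998, 1.11 and 1.41 CPM before and 2.87, 3.6, 2.76 and 3.04 CPM after with ABX. The groups were apart in both arms, and the averaged log2 fold change was 0.82 (SE 0.10, adjusted p = 0.00279).

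Clock genes changed in a split direction. Of 25 members, 2 rose and 4 fell (24% called, against 0.963% of all genes tested), with a list median of 0.03. The genes that rose were Tef, which binds D-box elements, and Per3, a period protein. Those that fell were Arntl and Clock, the partners of the activating complex of the clock, Rora, a nuclear receptor that activates Arntl, and Nfil3, a repressor that binds the same elements as Tef. Nfil3 is also counted above among the immediate early genes that fell. With 1 library left out there were 0 calls without non-ABX before extinction replicate 4 and 1 without non-ABX before replicate 1 or non-ABX after replicate 3. There were 2 without ABX after replicate 3, 3 without ABX before replicate 3, ABX after replicate 4 or non-ABX after replicate 1, and 10 without non-ABX before replicate 3.

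Tef (Entrez 21685, chromosome 15, 81802673 to 81826863) had 427, 470 and 448 CPM before and 530, 493, 496 and 488 CPM after extinction without ABX. With ABX it had 406, 408, 411 and 450 CPM before and 530, 531, 522 and 557 CPM after. Neither arm overlapped, and the averaged log2 fold change was 0.26 (SE 0.04, adjusted p = 0.0119).

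Arntl (Entrez 11865) had 58.5, 52.5 and 50.3 CPM before and 48, 50, 47.1 and 42.4 CPM after extinction without ABX. With ABX it had 64.6, 57.3, 55.1 and 56.7 CPM before and 47.7, 45.7, 46.1 and 44.4 CPM after. The groups were apart in both arms, only narrowly so in the non-ABX arm, and the averaged log2 fold change was -0.27 (SE 0.05, adjusted p = 0.0216). Clock had -0.32 (adjusted p = 0.0399), Rora -0.44 (adjusted p = 0.0215), Nfil3 -0.35 (adjusted p = 0.0405) and Per3 0.26 (adjusted p = 0.0216). Rora was no longer called once the GC-content trend was taken out (-0.31, adjusted p = 0.0931).

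Dbp, the relative of Tef that swings most over the day in many tissues, had a value of 0.42 (SE 0.10, adjusted p = 0.0553), and Cry1, a repressor of the clock, a value of 0.26 (adjusted p = 0.0596). Per1 and Per2 had -0.09 and 0.09 (adjusted p = 0.73 and 0.701), and the Rev-erb genes Nr1d1 and Nr1d2 had -0.09 and -0.05 (adjusted p = 0.647 and 0.658). Circadian time at collection is not given in the labels, and its part in these results was not tested. Tef has 2 promoter windows with an E-box, the motif through which Arntl and Clock act, at chr15:81802423-81802722 and chr15:81811164-81811463 on the plus strand. The first is shown from RefSeq on GRCm38.p6, with the E-box in capitals, because Tef had the smallest p of the clock list.
Tef promoter: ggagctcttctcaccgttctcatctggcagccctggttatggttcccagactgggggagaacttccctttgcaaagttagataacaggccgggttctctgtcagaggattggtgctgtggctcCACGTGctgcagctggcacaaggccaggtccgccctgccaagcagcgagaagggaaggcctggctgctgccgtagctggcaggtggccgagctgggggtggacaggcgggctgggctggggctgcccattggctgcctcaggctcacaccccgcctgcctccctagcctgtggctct
The E-box was found in 5 of the 20 clock genes with a promoter in the table (25%), namely in Tef, Ciart, Bhlhe41, Cry1 and Per1, against 11% of tested genes with a promoter. Of these 5 only Tef was called, and the other lists searched had shares of similar size.

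**Figure D3:**
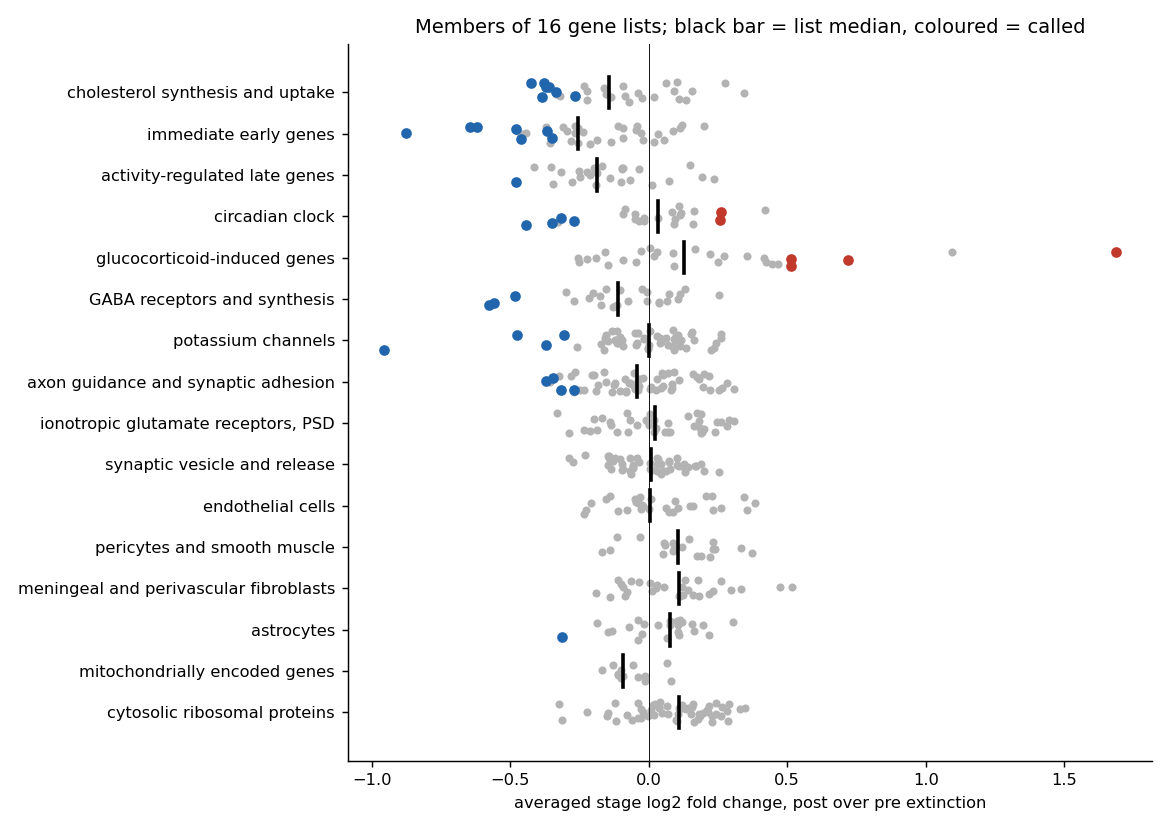
Averaged log2 fold change after over before extinction (horizontal axis) of the tested members of 16 gene lists, 1 point per gene, with the list median as a black bar, called genes that fell in blue, called genes that rose in red and other genes in grey. Points of the cholesterol and immediate early gene lists lie mostly left of 0 with 7 called in each, and the clock list has called genes on both sides.

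Glial and vascular genes gave few calls, in a table where 0.963% of all genes tested were called. Fabp7 (Entrez 12140, chromosome 10, 57784923 to 57788450), the brain fatty acid binding protein of astrocytes and radial glia, fell by 0.82 on the log2 scale (SE 0.13, adjusted p = 0.0119). It had 19.3, 16.6 and 17.9 CPM before and 12, 10.9, 10.4 and 9.39 CPM after extinction without ABX, and 26.4, 21.6, 24.9 and 16.8 CPM before and 16.7, 11.5, 12 and 7.77 CPM after with ABX. The groups were apart in both arms, although in the ABX arm the highest library after extinction nearly reached the lowest before it. Aqp4, the water channel of astrocyte endfeet, fell by 0.31 (adjusted p = 0.0442), and once the GC-content trend was taken out it had -0.18 (adjusted p = 0.102). Of 24 astrocyte markers, 15 had positive values and the median was 0.08, so these members did not share the direction of Fabp7 and Aqp4. Aqp4 was the 1 called astrocyte marker (4.17%, against 0.963% of all genes tested). The summed level of the astrocyte markers ran from 9384 to 9737 CPM before and from 8881 to 9830 CPM after extinction without ABX, and from 9010 to 11540 CPM and from 9514 to 10140 CPM with ABX.

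Etnppl, a phospholyase expressed in astrocytes, rose by 0.74 (SE 0.14, adjusted p = 0.0216), from 22.5 ± 1.69 to 35.2 ± 3.98 CPM (SD, n = 3 and 4) without ABX and from 36.4 ± 7.98 to 65 ± 22.9 CPM (SD, n = 4 each) with ABX. The groups were apart in both arms, and replicate 4 of the ABX libraries after extinction, at 99.3 CPM, lay far above the other 3. Olig2, a transcription factor of the oligodendrocyte lineage, rose by 0.34 (adjusted p = 0.0409), but once the GC-content trend was taken out it had 0.15 (adjusted p = 0.505). Olig2 was the 1 called of 14 oligodendrocyte precursor markers (7.14%, against 0.963% of all genes tested). Of 22 myelin and oligodendrocyte genes, 30 endothelial markers, 20 pericyte and smooth muscle markers, 30 fibroblast markers and 24 microglia and macrophage markers, 0 were called. With 0.963% of all genes tested called, 0 calls in lists of this size is near that share. The medians of these lists were -0.04, 0.01, 0.11, 0.11 and 0.07.

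Blood transcripts were rare but uneven. Of 14 blood cell markers 7 were tested, 7 had positive values, 0 were called and the median was 1.09, with 1.82 in the ABX arm and 0.72 in the non-ABX arm. The averaged median was 0.39 without non-ABX after extinction replicate 2, 0.59 without ABX after replicate 1, 0.43 with voom and 1.79 with a surrogate variable. The haemoglobin gene Hba-a1 had 0 counts in each library, while Hba-a2 had a value of 1.69 (adjusted p = 0.244). The list's summed level ran from 0.690 to 0.987 CPM before and from 0.690 to 3.10 CPM after extinction without ABX, and from 0.768 to 3.23 CPM before and from 1.36 to 11.8 CPM after with ABX. The part of blood in the results above was not tested, and the summed level of endothelial markers ranged from 1012 to 1137 CPM before and from 1020 to 1083 CPM after extinction without ABX, and from 776 to 1003 CPM and from 796 to 969.5 CPM with ABX.

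The genes with the largest changes in the named set included several outside these lists. Among genes that rose with libraries apart in both arms were Smpdl3b, a sphingomyelin phosphodiesterase (0.82, adjusted p = 0.0166), Fbn2, a microfibril protein (0.44, adjusted p = 0.0322), and Mthfd1l, a mitochondrial enzyme of folate metabolism (0.40, adjusted p = 0.0098). Mthfd1l had 15.7, 16.5 and 17.8 CPM before and 21, 19.9, 21.7 and 20.6 CPM after extinction without ABX, and 14.1, 16.5, 16.5 and 18.5 CPM before and 21.6, 23.8, 21.5 and 24.2 CPM after with ABX. Each value after extinction, in either arm, lay above each value before it. Smaller rises were found for Krt9, a keratin (0.35), Zdhhc14, a palmitoyltransferase (0.31), Wipf3, an actin regulator (0.30), Pdgfc, a growth factor (0.25), and Matn2, a matrix protein (0.24). Once the GC-content trend was taken out, Krt9 had 0.25 (adjusted p = 0.1) and Zdhhc14 0.15 (adjusted p = 0.337).

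Among genes that fell with libraries apart in both arms were Lnpep, the aminopeptidase that cleaves oxytocin and vasopressin (-0.68, adjusted p = 0.0216), and Dgkh, a diacylglycerol kinase (-0.68, adjusted p = 0.0098). Dgkh had 17.9, 21 and 22.8 CPM before and 10, 13.6, 10.6 and 15.3 CPM after extinction without ABX, and 18.1, 22.8, 23.6 and 18.9 CPM before and 11.3, 14.2, 15.1 and 13.8 CPM after with ABX. Each library before extinction, in either arm, lay above each library after it. Further genes that fell were Ago3, an argonaute protein of the microRNA pathway (-0.58), Ptpn4, a tyrosine phosphatase (-0.56), Bmpr2, a receptor for bone morphogenetic proteins (-0.54), Pcdh11x, a protocadherin (-0.51), Hecw2, a ubiquitin ligase (-0.51), and Ptar1 (-0.64). Zbed6, a zinc finger factor, also fell (-0.56), but its annotated position lies within that of Zc3h11a, whose own value was -0.01, and reads of overlapping genes may not be separable. The chromatin regulators Tet1, which oxidises methylated cytosine, and Chd1, a remodeller, fell by 0.37 and 0.26. They were the 2 called of 48 chromatin modifiers (4.17%, against 0.963% of all genes tested). With the GC-content and transcript-length trends removed, Chd1 was not called (-0.12, adjusted p = 0.0544).

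The stage difference was larger in the ABX arm for most called genes. Of the 162 called genes, 115 changed more in the ABX arm, 32 of 37 higher and 83 of 125 lower. How many of all genes tested changed more in that arm was not counted. In the lowest and highest of 10 equal bins of genes by GC content, medians were also further from 0 in that arm. They were -0.185 and 0.248 with ABX, and -0.114 and 0.127 without. The median of the higher genes was 0.56 in the ABX arm and 0.32 in the non-ABX arm, and that of the lower genes was -0.41 and -0.36. Tested alone, the ABX arm had 16 called genes (0.0951%) and the non-ABX arm 0, with 2798 and 830 genes at an unadjusted p under 0.05. With DESeq2 the arms had 282 and 19 called genes. The test of the difference between the arms called 0 genes by edgeR, with 346 at an unadjusted p under 0.05 and a smallest adjusted p of 0.564, and called 4 genes by DESeq2.

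All 16 genes called in the ABX arm were called in the average as well, which the ABX arm's part in the average partly fixes. All 16 had the same sign in the non-ABX arm, as had 89.96% of genes with an unadjusted p under 0.05 in the ABX arm. The median size of the 16 was 0.81 in the ABX arm and 0.33 in the non-ABX arm. In the latter, 11 of the 16 had an unadjusted p under 0.05, against 733 of all 16816 genes tested with that and the same sign. The count of 16 became 3 without ABX before extinction replicate 1, 237 without ABX before replicate 4 and 43 without ABX after replicate 1. It was 4 without ABX before replicate 2, ABX before replicate 3 or ABX after replicate 4, 5 without ABX after replicates 2 or 3, and 10 without non-ABX before replicate 1 or non-ABX after replicates 2 or 3.

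For some genes the average hides unequal arms. Pkp2, a desmosomal plaque protein, had 5.88, 6.72 and 6.4 CPM before and 6.91, 6.73, 6.48 and 6.67 CPM after extinction without ABX, against 4.8, 5.95, 6.7 and 6.09 CPM before and 8.96, 12.1, 11.6 and 11.1 CPM after with ABX. The groups overlapped without ABX and were apart with ABX, and the log2 fold changes were 0.08 and 0.90. Hif3a, a hypoxia-inducible factor subunit on the glucocorticoid list, had 14.2, 14.1 and 14.9 CPM before and 16.5, 13.6, 20.6 and 16.1 CPM after without ABX, and 11.7, 6.93, 11.5 and 16 CPM before and 21.8, 28.2, 26.4 and 30.8 CPM after with ABX. Its log2 fold changes were 0.22 and 1.22. The unadjusted p of the difference between arms was 1.0e-04 for Pkp2 and 0.0019 for Hif3a, and 0.947 for Kcnh7, but none passed the adjustment.

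Called genes also differed from the rest of the table in their sequence make-up. The longest transcript of the genes that fell had a median GC content of 43.4%, against 49.9% for all genes tested and 53.4% for the genes that rose. The 3' untranslated region of the genes that fell had a median of 3495 bases, against 1344 for all genes tested and 1552 for those that rose. Of the genes that fell, 54.1% spanned 100 kb or more of the genome, against 14.3% of all genes tested. Kcnh7, Erbb4, Gabrb1, Dcc and Rora are examples of such long genes.

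This make-up followed the table as a whole. The median averaged log2 fold change rose from -0.15 in the lowest of 10 equal bins of genes by GC content to 0.19 in the highest, and the lowest bin held 36 of the genes that fell. Within libraries, the level of the fifth richest in GC (55.6% or more) minus that of the fifth poorest (44% or less), relative to the mean library, was -0.10, 0.55 and -0.24 on the log2 scale before and 0.36, 0.51, 0.24 and 0.08 after extinction without ABX. With ABX it was -0.72, -0.22, -0.58 and 0.07 before and -0.175, -0.21, 0.22 and 0.21 after. The groups overlapped in both arms, and non-ABX before extinction replicate 3 lay above all libraries after extinction.

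With this trend removed from each library, the calls were 98 higher and 214 lower among 15332 genes with a GC value. Of 157 called genes that could be tested so, 157 kept their sign, 154 had an unadjusted p under 0.05 and 124 were still called. With transcript length removed as well the calls were 158 higher and 265 lower. The part of RNA quality or library chemistry in the stage difference was not tested.

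**Figure D4:**
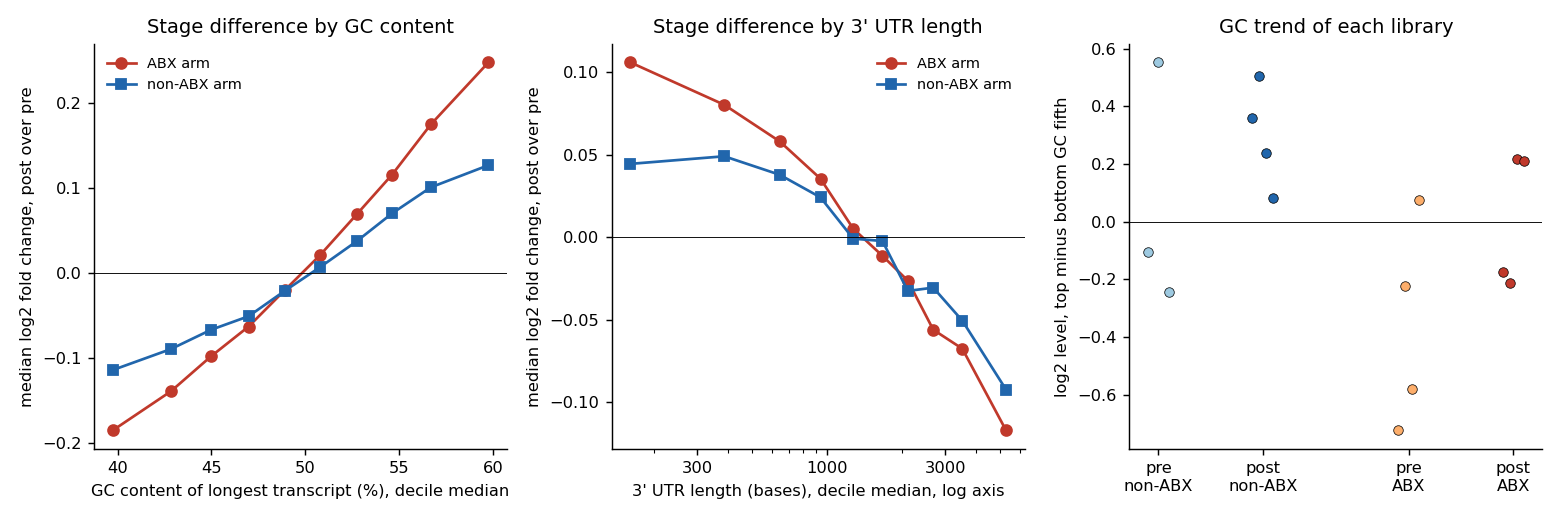
The left and middle panels plot the median log2 fold change after over before extinction (vertical axes) in 10 equal bins of the tested genes by transcript GC content and by 3' UTR length (horizontal axes, the latter on a log scale), separately for the ABX arm (red circles) and the non-ABX arm (blue squares). The right panel plots for each library the log2 level of GC-rich minus GC-poor genes, where the libraries before and after extinction overlap in both arms.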

How the data were processed

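RNA sequencing libraries of dissected mPFC were made with a SMARTer Ultra Low Input V4 kit, whose reads carry no strand information, per the labels' protocols. The authors deposited unnormalised counts by Entrez gene, 1 column for each of 15 libraries. The submitters' processing notes name mm10, STAR 2.3.0 and CASAVA 1.8.2. These notes do not give how reads were assigned to genes. Of 27179 identifiers, 25275 were matched to RefSeq symbols (GRCm38.p6).

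The analysis used edgeR 4.0.16 under R 4.3.3. Low genes were dropped with filterByExpr (minimum count 10, minimum total 15), TMM factors scaled the libraries, and 1 quasi-likelihood fit with a mean per group covered all 4 groups. The contrast was the mean of both arms' differences, tested two-sided with Benjamini-Hochberg adjustment over all genes tested. Dividing the log2 fold change by the root of the F statistic gave its SE. The biological coefficient of variation was 0.112. The fit was tested on simulated data.

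Members and the 43 gene lists were chosen with earlier results of these data known. Some genes stand on more than 1 list. Named genes were the 15 largest positive and 15 largest negative changes among called genes that had an ordinary symbol, averaged 1 CPM or more, had the same sign in both arms and had libraries apart within each arm, plus the 3 members of smallest unadjusted p in each list described. Other called list members and some well-known genes were named after their values were seen. Some genes that the rule takes are left out of the text.

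Alternatives were DESeq2 1.42.0, RLE scaling, no filter, a filter at a mean of 1 CPM, limma 3.58.1 voom with sample quality weights, the replicate number as a block, an additive model, a GC-content spline (5 degrees of freedom) per library, 1 surrogate variable (sva 3.50.0), each arm alone and each library left out. Removing transcript length as well, and leaving out both libraries at the ends of the first principal component, were chosen after seeing the data.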

Additional observations from a re-analysis of the deposited data

Results flagged for a closer look

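In 294 groups of 4 libraries, over 98 genes followed, 15 had 1 library far from the other 3, and chance flags about 1 in 20 groups. Libraries far above the others of their group were ABX after extinction replicate 4 for Etnppl (99.3 CPM, the others 53.3 to 54.1), ABX before extinction replicate 4 for Tef (450 CPM, the others 406 to 411) and Mgp (23.3 CPM, the others 16.2 to 16.8), ABX before extinction replicate 1 for Olig2 (11.5 CPM, the others 8.08 to 8.53) and non-ABX after extinction replicate 1 for Mapk3 (157 CPM, the others 138 to 141).

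Non-ABX after extinction replicate 1 lay far below the others for Egr2 (3.09 CPM, the others 7.39 to 8.11), Fosl2 (26.8 CPM, the others 34.2 to 35.7), Adcy8 (24.5 CPM, the others 27.2 to 27.3) and Hsd17b7 (28.5 CPM, the others 32.3 to 32.4). Non-ABX after extinction replicate 4 lay below for Cdkn1a (21.4 CPM, the others 24.6 to 24.7). ABX after extinction replicate 4 lay below for Kcnh5 (10.1 CPM, the others 12 to 12.2) and Chrm3 (76.5 CPM, the others 88.3 to 89.1), and replicate 1 of that group for Rora (8.88 CPM, the others 10 to 10.1). ABX before extinction replicate 2 lay below for Egr2 (12.7 CPM, the others 17.5 to 18.2), and replicate 4 for Dcc (27 CPM, the others 32.9 to 33.7).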

How the results depend on the processing

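The 37 genes higher after extinction became 180 with DESeq2, 3383 with voom and 98 with the GC-content trend removed, and 5 to 1296 with 1 library left out. The 125 lower genes became 524, 2975 and 214 under these settings, and 9 to 966 with 1 library left out. In settings chosen after seeing the data, higher and lower counts were 158 and 265 with transcript length removed too, and 689 and 530 without both libraries at the ends of the first principal component. With a replicate block, 66 genes were lower. The 7 same-numbered pairs correlated from -0.45 to 0.71 and 2 matched best with their own number, so the numbers were not taken as pairs. The 16 calls of the ABX arm became 282 with DESeq2, 465 with voom, 71 with GC removed, 32 with a surrogate variable, 158 with GC and length removed, 5 in the arm alone and 3 to 237 with 1 library left out. The 0 calls of the non-ABX arm became 19 with DESeq2, 3191 with voom, 2 without a filter, 2 with GC removed, 3 with a surrogate variable, 2 with GC and length removed and 0 to 1 with 1 library left out. DESeq2 called 4 interactions. The 408 genes past an unadjusted 0.05 in both arms became 3027 with voom, 874 without both end libraries and 170 to 1470 with 1 library left out. Npas4 (-0.04) turned to 0.022 with voom, 0.013 with the replicate block, 0.029 with a surrogate variable and 0.058 without both end libraries, and ran from -0.21 to 0.078 with 1 library left out. The cause of these changes was not tested. Of 75 called genes followed, 13 passed under all 26 alternatives (Plin4, Fmo2, Mthfd1l, Kcnh7, Fabp7, Dgkh, Ago3, Zbed6, Gabrb1, Pcdh11x, Insig1, Kctd16 and Smim3), and 9 were lost with GC removed.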

Other observations

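Lists outside the comparisons above gave few calls. Of all 16816 genes tested, 8370 had negative values, 0.743% fell and 0.22% rose. Of 20 fatty acid synthesis genes, 16 had negative values and 1 fell, Elovl7, a fatty acid elongase (-0.35, edgeR adjusted p = 0.0405), which had -0.22 (adjusted p = 0.0507) once the GC-content trend was taken out. The elongase gene Elovl6 had -0.25 (adjusted p = 0.118). Of 26 endoplasmic reticulum stress genes, 1 rose, Sdf2l1 (0.37, adjusted p = 0.0348), which had 0.23 (adjusted p = 0.18) once that trend was taken out. In all, 20 of the 43 lists held 0 called genes.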
